A study of Mus musculus with 16 samples.

Results

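The genes described are 40 collagens and other extracellular matrix genes of mouse skeletal muscle, listed by name as a module and found on the arrays through the RefSeq accession of each probe. All 40 were present, with 55 of the 55681 non-control probes, and all 40 were among the 28972 genes tested. The RNA came from whole, dissected skeletal muscle of male mice aged 21 to 23 weeks, and no label names the muscle. Wild-type mice (WT, Skm-CB1R+/+) were compared with littermates lacking the cannabinoid receptor CB1 in skeletal muscle (CB1KO, Skm-CB1R-/-), made by crossing mice with LoxP-flanked Cnr1 alleles to mice carrying Cre under the ACTA1 promoter, which is active in muscle fibres. Both genotypes were fed for 15 weeks a standard diet (SD, 16.7% of kJ as fat and 12.4% as sugar) or one rich in both fat and sugar (HFHS, high fat-high sugar, with 49.2% and 32.2% from these sources), with 4 arrays in each of the 4 groups. CB1KO therefore differs from WT by a deletion in fibres, and other cells of the tissue were not targeted. The labels write both genotypes as floxed and Cre-positive in one passage, and one diet tag contradicts the sample titles for the CB1KO mice on SD and the WT mice on HFHS. Genotype and diet were taken from the titles, which the source names and the design text match. The protocol also mentions assignment to vehicle or S961 without saying which animals received it. The series text calls the replicates biological and does not say whether animals were pooled.

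Each muscle fibre lies in a basement membrane built of laminins and a collagen IV network, tied together by nidogens, and this sheath is embedded in an interstitial matrix of collagen I and III fibrils, collagen VI filaments, proteoglycans and elastic fibres. Fibroblasts and fibro-adipogenic progenitors make much of the interstitial matrix, and fibres, endothelial cells and pericytes contribute to the basement membrane. Lysyl oxidases crosslink collagen and elastin, metalloproteinases degrade matrix, TIMP proteins inhibit them, and hyaluronan is a large glycosaminoglycan made at the cell surface by hyaluronan synthases. CB1, the product of Cnr1, is a G protein-coupled receptor whose best known signal lowers cyclic AMP.

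Values are relative log2 signals, which is the log2 of the Agilent processed signal of a spot minus the 75th percentile of that array, so 0 is the 75th percentile and 1 unit is a doubling. Means carry the SD over the 4 arrays of a group, and differences carry the standard error (SE) of the fit. A gene was represented by its brightest probe, and a difference was called when limma's Benjamini-Hochberg adjusted p over all 28972 genes was below 0.05. Between 56.7% and 75% of spots were well above background on an array, and pairs of arrays correlated at r = 0.868 to 0.993 over probes. The SD of log2 signal over the spots was 2.89 on CB1KO SD replicate 2 and 3.97 on CB1KO HFHS replicate 1, against 3.14 to 3.69 on the others, so the values of the whole list are also given without those 2 arrays. All SD arrays lay on 1 slide and all HFHS arrays on another, so slide and diet cannot be told apart. On both slides the WT arrays lay in row 1 and the CB1KO arrays in row 2. Genotype and row on the slide therefore cannot be told apart either. All 11 fast muscle fibre markers measured, among them Acta1 and Ckm, were well above background on all 16 arrays. Cnr1 averaged -2.73 ± 0.72 in WT on SD, -2.97 ± 0.69 in CB1KO on SD, -2.30 ± 0.64 in WT on HFHS and -2.44 ± 0.68 in CB1KO on HFHS (SD, n = 4 each), with overlapping groups. Where its probe lies relative to the deleted part is not given, so it does not check the knockout.

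Has1, which encodes a hyaluronan synthase, was the only one of the 40 matrix genes called in any of the 6 comparisons, and it was higher in CB1KO than in WT muscle. Averaged over both diets the difference was 2.57 ± 0.48 on the log2 scale, or 5.92-fold (SE, n = 8 against 8 arrays; limma adjusted p = 0.0285). That is 1 of 40 members, beside 0.763% of all genes called in this comparison, 0.311% as higher and 0.452% as lower in CB1KO. At an unadjusted p under 0.05, 3 members were higher (Has1, Timp1 and Col6a2) and none was lower, beside 3.73% and 11.3% of all genes.

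On SD, Has1 read -3.69, -2.01, -3.92 and -4.75 on the WT arrays and -0.54, -0.18, -0.16 and 1.71 on the CB1KO arrays. Every CB1KO array exceeded every WT array, and the fourth CB1KO array stood well above the other 3. On HFHS it read -3.71, -5.40, -3.54 and -5.08 in WT and -3.57, -3.17, -3.91 and -1.76 in CB1KO, and the groups overlapped. The difference was 3.80 ± 0.67 on SD (adjusted p = 0.101) and 1.33 ± 0.67 on HFHS (adjusted p = 0.579), and the difference between these differences was -2.47 ± 0.95 (limma interaction, adjusted p = 1). Within CB1KO, the HFHS arrays were all below the SD arrays, with a difference of -3.31 ± 0.67 (adjusted p = 0.115), and it was the only member lower without overlap there, beside 1.25% of all genes. Has1 was dim: its probe was well above background on 3, 4, 2 and 4 of the 4 arrays of WT SD, CB1KO SD, WT HFHS and CB1KO HFHS, and the lowest signal well above background on an array lay between -5.22 and -2.74. The call of the averaged difference was lost without any one of 7 arrays (adjusted p up to 0.0745) and with slide as a block (adjusted p = 0.0521), while the difference itself ran from 2.32 to 2.83 over the 16 sets that leave out 1 array. As slide equals diet, the slide block only leaves the interaction out of the fit and adjusts for nothing further.

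The sequence around the Has1 start is shown because Has1 was the only member called. It holds, in capitals, an exact cyclic AMP response element. The window covers 250 bases before to 50 after the start, from RefSeq on GRCm38.p6, chr17:17855139-17855438, minus strand, written 5′ to 3′.
Has1: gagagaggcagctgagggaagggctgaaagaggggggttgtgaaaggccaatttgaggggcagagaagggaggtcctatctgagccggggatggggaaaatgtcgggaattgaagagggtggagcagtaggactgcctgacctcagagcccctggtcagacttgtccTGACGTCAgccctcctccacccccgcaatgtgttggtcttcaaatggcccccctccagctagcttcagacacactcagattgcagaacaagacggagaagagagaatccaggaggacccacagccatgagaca
The element, TGACGTCA, reads the same on both strands and begins 83 bases before the start. It was found in 1.79% of the 32851 mouse promoter windows of the same length, and Has1 was the only member holding it among the 28 windows available for 24 of the 40 members. A match of letters does not show that a factor binds there, and a part of cyclic AMP in the Has1 values was not tested.

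Has2, the other hyaluronan synthase on the list, read -2.28, -2.00, -2.76 and -2.34 in WT and -2.11, -1.43, -2.14 and -0.84 in CB1KO on SD. On HFHS its values were -2.37, -2.63, -2.18 and -2.01 in WT and -1.61, -2.50, -2.78 and -2.71 in CB1KO. The groups overlapped on both diets. The SD difference of 0.71 ± 0.31 had an unadjusted p of 0.0386 and an adjusted p of 0.522 by limma.

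**Figure D1:**
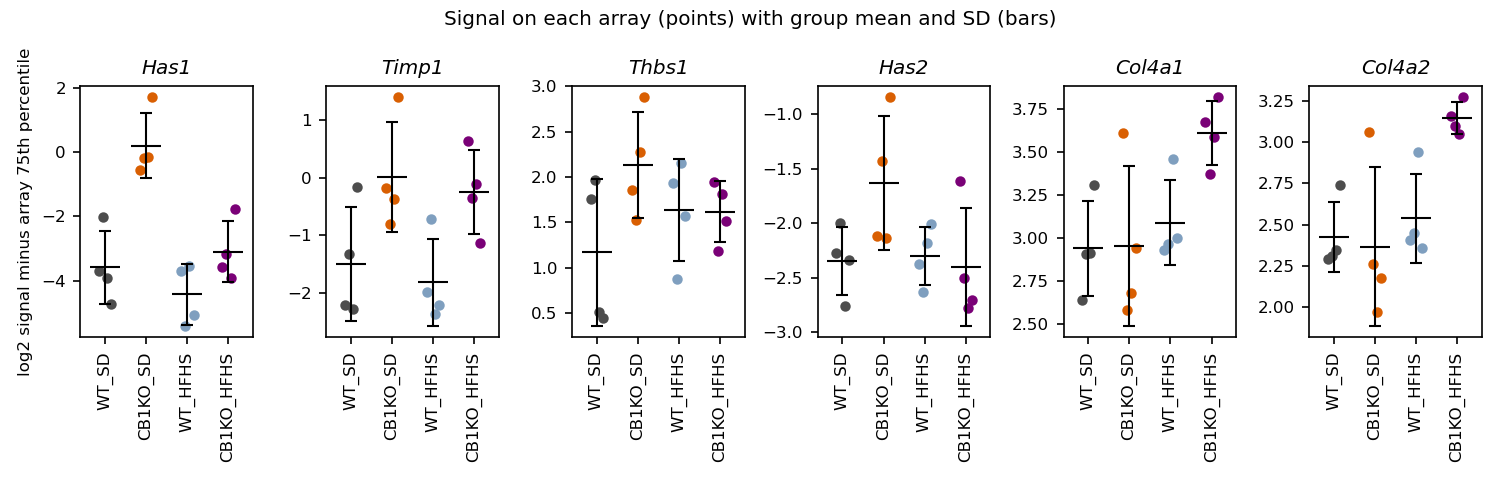
Relative log2 signal (y axis, log2 units relative to the array's 75th percentile, scaled separately for each gene) of Has1, Timp1, Thbs1, Has2, Col4a1 and Col4a2 by group on the x axis, with points for the 4 arrays and bars for the group mean and SD. For Has1 the 4 CB1KO SD arrays, from -0.54 to 1.71, sit above all other arrays, and for Col4a2 the 4 CB1KO HFHS arrays, from 3.05 to 3.27, sit above the WT HFHS arrays.

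Timp1, a secreted inhibitor of metalloproteinases, was the member with the second smallest p over both diets, and it did not pass the threshold. It read -2.20, -1.32, -2.28 and -0.17 in WT and -0.18, -0.80, -0.37 and 1.39 in CB1KO on SD, and -1.98, -0.71, -2.36 and -2.20 in WT and 0.63, -0.35, -0.11 and -1.13 in CB1KO on HFHS. On each diet all but 1 of the WT arrays lay below all 4 CB1KO arrays. The difference was 1.50 ± 0.57 on SD (adjusted p = 0.464), 1.57 ± 0.57 on HFHS (adjusted p = 0.390) and 1.53 ± 0.41 averaged (2.90-fold, adjusted p = 0.0985). It was called with array weights (1.53, adjusted p = 0.0353) and with signal spread as a covariate (1.49, adjusted p = 0.0439). These settings called 1977 and 1734 of the 28972 genes over both diets, against 221 with the settings used.

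The other inhibitors and the metalloproteinases on the list were not called, and their groups are described by value. Timp2, which inhibits metalloproteinases and also takes part in activating MMP2, read 6.21, 6.05, 5.71 and 5.55 in WT and 6.09, 5.25, 5.64 and 6.28 in CB1KO on SD, and 6.60, 5.75, 5.75 and 6.38 in WT and 6.91, 6.08, 6.03 and 5.79 in CB1KO on HFHS. All groups overlapped for Timp2, and its other probe differed in the sign of the averaged difference, with both values near 0 (0.01 and -0.03). Timp3, a matrix-bound inhibitor, averaged 4.75 ± 0.14 in WT and 4.88 ± 0.32 in CB1KO on SD, and 4.90 ± 0.23 and 4.70 ± 0.26 on HFHS. The gelatinase gene Mmp2 averaged 2.03 ± 0.30 and 2.05 ± 0.66 on SD and 2.10 ± 0.32 and 2.46 ± 0.36 on HFHS, in the same order. Mmp14, a membrane-bound enzyme that activates MMP2, averaged -1.59 ± 0.41 and -1.41 ± 0.63 on SD and -1.79 ± 0.30 and -1.40 ± 0.19 on HFHS. For the 5 genes of this role the median difference was 0.13 on SD and 0.36 on HFHS. These lay 0.25 and 0.50 above the medians of all genes. With single arrays left out, the SD distance ran from 0.19 (without CB1KO SD replicate 4) to 0.39 (without CB1KO SD replicate 3). The HFHS distance ran from 0.29 (without CB1KO HFHS replicate 1) to 0.55 (without WT HFHS replicate 3).

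None of the 7 fibrillar and fibril-associated collagens was called. Col1a2, which encodes the second chain of collagen I, read 6.11, 6.22, 5.68 and 6.50 in WT and 6.52, 5.75, 5.44 and 6.47 in CB1KO on SD, and 6.95, 5.89, 5.94 and 6.50 in WT and 7.29, 6.56, 6.41 and 5.88 in CB1KO on HFHS. All 4 groups overlapped, and the highest value was on CB1KO HFHS replicate 1. Its partner chain gene Col1a1 averaged 3.94 ± 0.33 in WT and 4.03 ± 0.75 in CB1KO on SD, and 4.36 ± 0.57 and 4.57 ± 0.70 on HFHS. Col3a1, the collagen III gene, averaged 4.35 ± 0.91 and 4.54 ± 0.65 on SD and 4.77 ± 0.45 and 5.43 ± 0.53 on HFHS. For Col5a1 and Col5a2, chains of the collagen V that helps start fibrils, the means ranged over the 4 groups from 0.86 to 1.56 and from -1.46 to -1.12. Col12a1 and Col14a1, whose products sit on fibril surfaces, ranged from -0.76 to -0.23 and from 0.31 to 1.12, and the Col12a1 spot of CB1KO SD replicate 3, an outlier spot, was left out of its fit. Across the 7 genes the median genotype difference was 0.06 on SD and 0.22 on HFHS, and the latter lay 0.36 above the median of all genes. Without CB1KO HFHS replicate 1 that distance was 0.02. On SD the distance was 0.19, 0.0044 without CB1KO SD replicate 4 and 0.40 without CB1KO SD replicate 2.

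Collagen VI forms beaded filaments near the fibre surface, and its 3 chain genes on the list were all higher in mean in CB1KO than in WT on HFHS, though none was called. Col6a2 read -0.20, -0.03, -0.81 and 0.91 in WT and 1.00, 0.73, -0.50 and 0.26 in CB1KO on SD, and 0.57, 0.12, 0.57 and 0.30 in WT and 1.53, 1.45, 0.91 and 0.72 in CB1KO on HFHS. On HFHS every CB1KO array exceeded every WT array for Col6a2, while on SD the groups overlapped. Its difference was 0.40 ± 0.36 on SD (adjusted p = 0.824), 0.76 ± 0.36 on HFHS (adjusted p = 0.542) and 0.58 ± 0.26 averaged (limma adjusted p = 0.306). Col6a1 read 3.77, 4.16, 3.81 and 4.45 in WT and 4.57, 3.52, 3.66 and 4.35 in CB1KO on SD, and 4.59, 4.04, 4.17 and 4.27 in WT and 5.12, 4.58, 4.57 and 4.35 in CB1KO on HFHS. Both pairs of groups overlapped for Col6a1. Col6a3 averaged 3.09 ± 0.28 and 3.13 ± 0.55 on SD and 3.48 ± 0.17 (n = 3, with 1 outlier spot left out) and 3.92 ± 0.55 on HFHS, WT first. The median over the 3 genes lay 0.57 above that of all genes on HFHS, and 0.29 without CB1KO HFHS replicate 1.

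Among the 9 basement membrane genes, the collagen IV pair stood higher in CB1KO than in WT on HFHS but not on SD, without passing the threshold. Col4a2 read 2.29, 2.31, 2.35 and 2.74 in WT and 3.06, 2.26, 1.97 and 2.18 in CB1KO on SD, and 2.40, 2.45, 2.94 and 2.36 in WT and 3.16, 3.10, 3.05 and 3.27 in CB1KO on HFHS. Every CB1KO HFHS array exceeded every WT HFHS array, and 1 array stood apart in each WT group, replicate 4 on SD and replicate 3 on HFHS. Col4a1 read 2.64, 2.91, 2.91 and 3.31 in WT and 3.61, 2.58, 2.68 and 2.94 in CB1KO on SD, and 2.93, 2.97, 3.46 and 3.0 in WT and 3.67, 3.37, 3.58 and 3.82 in CB1KO on HFHS. Its HFHS groups overlapped only through WT replicate 3, which stood apart from the other 3.

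The HFHS difference was 0.61 ± 0.21 for Col4a2 (1.52-fold, adjusted p = 0.351) and 0.52 ± 0.22 for Col4a1 (adjusted p = 0.465). Without CB1KO HFHS replicate 1 they were 0.60 and 0.50. With array weights they were 0.65 and 0.58, with adjusted p = 0.0238 and 0.0360, the only setting that called them. That setting called 2124 of the 28972 genes on HFHS, against 72 with the settings used. The interaction estimates were 0.66 ± 0.30 for Col4a2 and 0.51 ± 0.31 for Col4a1 (adjusted p = 1 for both). Within CB1KO the HFHS arrays were higher than the SD arrays by 0.78 ± 0.21 for Col4a2 (adjusted p = 0.222) and 0.66 ± 0.22 for Col4a1 (adjusted p = 0.309). Macrophage markers were not called either, but 12 of 12 had a higher mean in CB1KO than in WT on HFHS (median difference 0.86), and the log2 of their summed relative signal was 5.21 to 6.49 in CB1KO HFHS against 4.47 to 5.54 in WT HFHS. Endothelial markers had a median difference of -0.16 on HFHS, with 2 of 8 above 0, beside -0.14 and 31.4% for all genes. Smooth muscle and pericyte markers had one of -0.48, with 0 of 8 above 0. The part of these markers in the collagen IV values was not tested.

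Col4a1 and Col4a2 lie head to head on chromosome 8, and their start windows are shown because the pair varied together over the arrays (r = 0.90 over the 16 arrays after removal of group means, Spearman rho 0.69, and r = 0.94 without the 2 arrays of unusual spread). By r over the 16 arrays the pair ranked 21 among the 780 pairs of members. A part of the shared start in this was not tested. The windows are from RefSeq on GRCm38.p6, chr8:11312777-11313076 on the minus strand for Col4a1 and chr8:11312555-11312854 on the plus strand for Col4a2, each 5′ to 3′, with the 78 bases that both windows contain, on opposite strands, in capitals.
Col4a1: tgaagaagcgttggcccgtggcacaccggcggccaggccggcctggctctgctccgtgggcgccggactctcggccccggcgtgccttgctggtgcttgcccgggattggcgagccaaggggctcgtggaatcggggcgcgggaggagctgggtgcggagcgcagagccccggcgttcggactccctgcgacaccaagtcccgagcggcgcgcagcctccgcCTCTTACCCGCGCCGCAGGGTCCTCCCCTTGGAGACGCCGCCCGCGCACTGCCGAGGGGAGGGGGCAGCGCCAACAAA
Col4a2: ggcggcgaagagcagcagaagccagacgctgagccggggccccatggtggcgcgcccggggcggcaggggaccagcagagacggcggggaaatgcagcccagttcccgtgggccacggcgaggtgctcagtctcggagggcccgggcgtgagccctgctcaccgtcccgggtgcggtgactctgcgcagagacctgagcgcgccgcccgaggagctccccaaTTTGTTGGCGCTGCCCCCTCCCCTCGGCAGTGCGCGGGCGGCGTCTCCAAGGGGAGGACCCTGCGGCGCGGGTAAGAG
The shared stretch runs from base 11312777 to base 11312854. The Sp1 motif GGGCGG or its complement was present in both windows, as it was in 64.3% of the member windows and 35.7% of all windows.

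Lamc1, a laminin chain gene found in most laminins, read 0.64, 4.26, 4.19 and 4.09 in WT and 4.24, 3.33, 3.99 and 4.30 in CB1KO on SD, and 4.28, 4.17, 3.98 and 4.05 in WT and 4.40, 4.22, 4.24 and 4.38 in CB1KO on HFHS. WT SD replicate 1 lay far below the other 15 arrays for this gene. Lama2, the laminin chain typical of muscle fibres, averaged 3.34 ± 0.20 in WT and 3.15 ± 0.55 in CB1KO on SD, and 3.34 ± 0.18 and 3.40 ± 0.32 on HFHS. Lamb1, another laminin chain gene, had group means from 2.49 to 2.95, and Nid1, which encodes a nidogen, from 3.19 to 3.80. Col15a1 and Col18a1 encode collagens of the basement membrane zone, the latter the source of endostatin. Col15a1 ranged in mean from -3.11 to -2.66.

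For Nid2 and Col18a1 the larger differences were between diets. Nid2, the second nidogen gene, read 0.09, 0.07, -0.05 and 0.26 in WT and 0.40, -0.14, -0.32 and 0.15 in CB1KO on SD, and 0.62, 0.50, 0.13 and 0.47 in WT and 1.11, 0.68, 0.61 and 0.34 in CB1KO on HFHS. HFHS minus SD was 0.33 ± 0.19 in WT (adjusted p = 0.907) and 0.66 ± 0.19 in CB1KO (adjusted p = 0.231), with overlap of 1 array on each side in both genotypes. Col18a1 read 0.85, 0.99, 0.43 and 0.45 in WT and 1.11, 0.20, 0.32 and 0.91 in CB1KO on SD, and 1.17, 1.06, 1.13 and 1.14 in WT and 2.08, 0.91, 0.91 and 0.56 in CB1KO on HFHS. All WT HFHS arrays exceeded all WT SD arrays for Col18a1, by 0.44 ± 0.29 (limma adjusted p = 0.938), and it was the only member of which that was true, beside 2.04% of all genes.

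The 4 small leucine-rich proteoglycans, which bind collagen fibrils and regulate their width, had a median genotype difference of -0.02 on HFHS, 0.12 above that of all genes. Without CB1KO HFHS replicate 1 that distance was -0.13. Dcn, which encodes decorin, read 8.19, 8.18, 7.56 and 7.43 in WT and 7.88, 7.13, 7.35 and 8.12 in CB1KO on SD, and 8.22, 7.77, 7.74 and 7.83 in WT and 8.32, 7.89, 7.69 and 7.58 in CB1KO on HFHS. Its 4 groups overlapped throughout. The lumican gene Lum ranged in group mean from 3.21 to 3.57, the biglycan gene Bgn from -0.06 to 0.20 and the fibromodulin gene Fmod from 2.79 to 3.17.

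All 5 elastic fibre and crosslinking genes were higher in mean in CB1KO than in WT on HFHS, with a median of 0.49, and 4 of 5 on SD, with a median of 0.14. Relative to all genes the HFHS median was 0.63, and 0.40 without CB1KO HFHS replicate 1. The SD median was 0.26 on that scale, 0.085 without CB1KO SD replicate 1 and 0.43 without CB1KO SD replicate 2. Loxl1, a lysyl oxidase relative needed for elastic fibres, read 0.86, 1.22, 1.13 and 1.77 in WT and 2.19, 0.93, 1.06 and 1.73 in CB1KO on SD, and 1.71, 1.42, 1.64 and 1.38 in WT and 2.32, 2.18, 1.89 and 1.92 in CB1KO on HFHS. Every CB1KO HFHS array exceeded every WT HFHS array, and the SD groups overlapped. The difference was 0.54 ± 0.26 on HFHS (adjusted p = 0.545) and 0.39 ± 0.18 averaged (limma adjusted p = 0.344). Loxl2, which crosslinks collagen IV, read 1.00, 0.99, 0.55 and 0.96 in WT and 1.22, 0.62, 0.80 and 1.44 in CB1KO on SD, and 1.43, 0.86, 1.29 and 1.40 in WT and 2.07, 1.25, 1.50 and 1.11 in CB1KO on HFHS. Its groups overlapped, and WT SD replicate 3 lay below the other 3 arrays of its group. Lox, the founding lysyl oxidase gene, averaged -0.53 ± 0.49 and -0.66 ± 0.57 on SD and -0.80 ± 0.54 and -0.40 ± 0.58 on HFHS, WT first. The fibrillin gene Fbn1 averaged 1.14 ± 0.42 and 1.28 ± 0.55 on SD and 1.21 ± 0.31 and 1.70 ± 0.36 on HFHS, and Eln, the elastin gene, -1.99 ± 0.42 and -1.95 ± 0.85 on SD and -1.89 ± 0.38 and -1.35 ± 0.18 on HFHS.

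The 5 adhesive and matricellular glycoproteins differed among themselves in direction on HFHS, with genotype differences from -0.96 for Tnc, the tenascin C gene, to 0.52 for Postn, the periostin gene. Thbs1, which encodes thrombospondin 1, an activator of latent TGF-beta, read 1.76, 1.97, 0.51 and 0.44 in WT and 1.86, 1.53, 2.27 and 2.88 in CB1KO on SD. On HFHS it read 1.94, 0.87, 2.16 and 1.57 in WT and 1.95, 1.19, 1.81 and 1.52 in CB1KO. WT SD replicates 3 and 4 were the lowest of the 16 arrays, and the groups overlapped on both diets. The SD difference was 0.96 ± 0.40 (unadjusted p = 0.0307, limma adjusted p = 0.499). Sparc, whose product binds collagen, read 7.61, 7.72, 6.89 and 7.39 in WT and 7.26, 6.82, 6.97 and 7.63 in CB1KO on SD, and 7.83, 7.45, 7.27 and 7.67 in WT and 8.25, 7.59, 7.43 and 7.17 in CB1KO on HFHS, with overlap throughout. The fibronectin gene Fn1 averaged 4.01 ± 0.22 and 4.29 ± 0.48 on SD and 4.18 ± 0.55 and 4.55 ± 0.70 on HFHS, WT first, and Tnc -2.51 ± 0.79, -2.57 ± 1.07, -2.58 ± 0.63 and -3.54 ± 0.83 in that order.

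**Figure D2:**
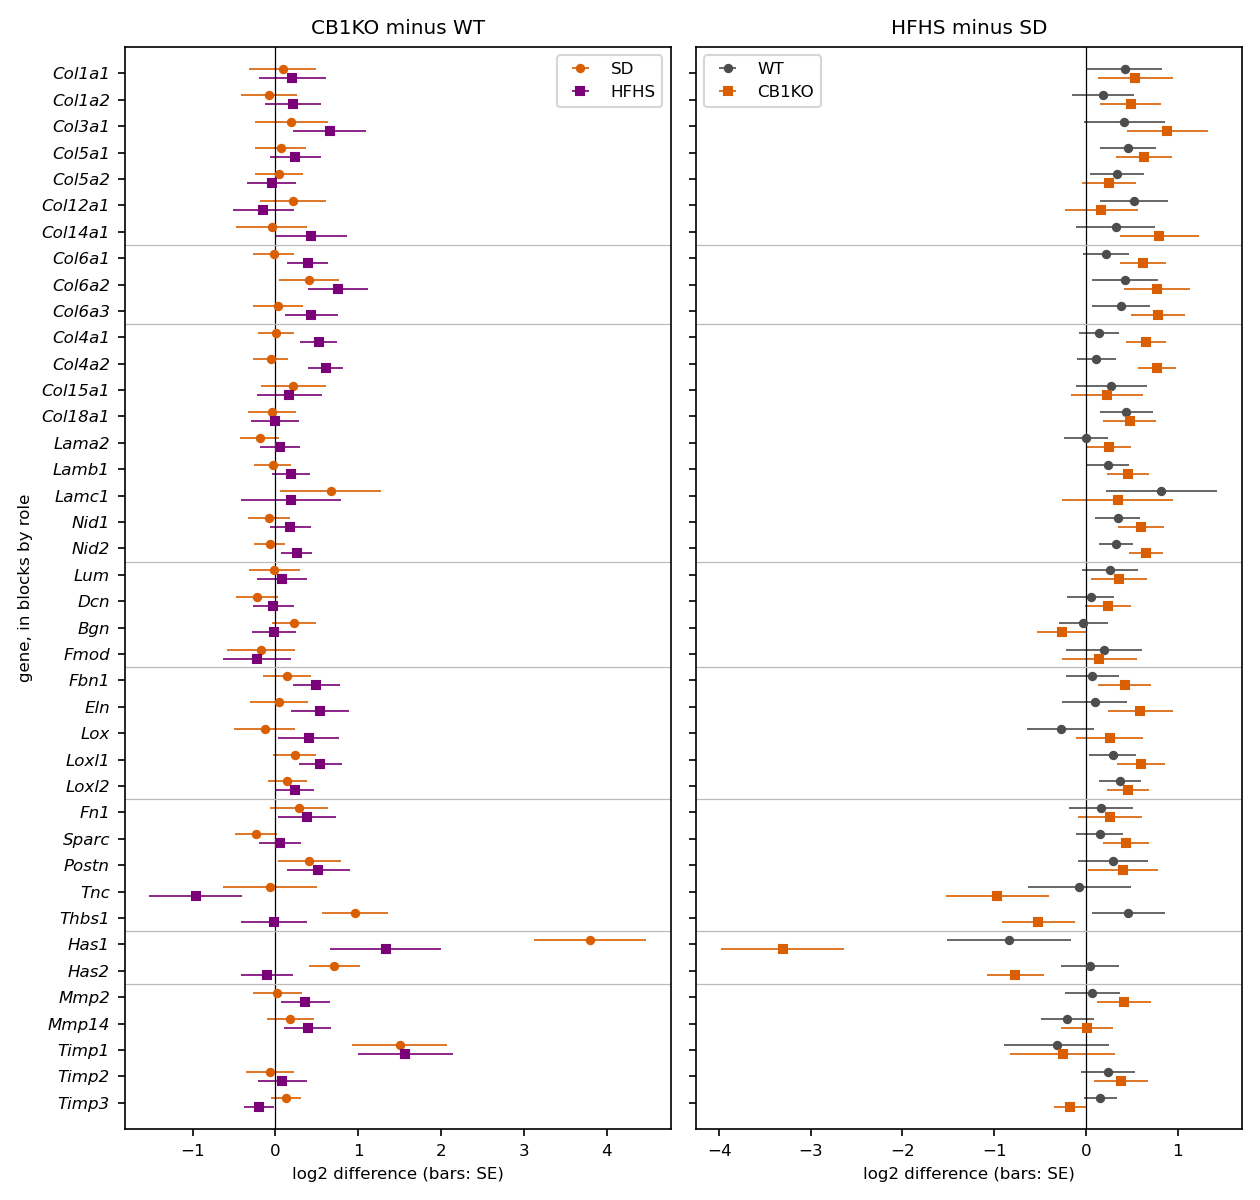
Log2 differences (x axis) with SE bars for the 40 genes (y axis, in blocks by role), on the left CB1KO minus WT on SD (circles) and on HFHS (squares), on the right HFHS minus SD in WT (circles) and in CB1KO (squares). Has1 at 3.80 on SD lies farthest from 0 on the left, and most squares on the right lie above 0 while Has1 in CB1KO lies at -3.31.

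As a list, the matrix genes lay higher in CB1KO relative to WT than the genes tested as a whole did, with few single genes apart. All genes had a median difference of -0.12 on SD, -0.14 on HFHS and -0.13 averaged, and the members 0.04, 0.23 and 0.19, so the members' median lay 0.16, 0.37 and 0.32 above. Of the 40, 24 were above 0 on SD, 30 on HFHS and 32 averaged, against 32.1%, 31.4% and 27.9% of all genes. Leaving out single arrays moved the distance on HFHS from 0.10 (without CB1KO HFHS replicate 1) to 0.51 (without WT HFHS replicate 1). On SD it ran from 0.03 (without CB1KO SD replicate 1) to 0.31 (without CB1KO SD replicate 3), and averaged from 0.15 to 0.38. Without both arrays of unusual spread the distances were 0.30 on SD and 0.10 on HFHS. The members were also brighter, with 34 of 40 above the median level of all genes tested. Their median level was 1.61, against -1.37 for all genes. With normexp and quantile normalization the median difference of all genes over both diets was -0.02, and the members' distance from it 0.22. The part of signal level in these distances was not tested.

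No member was called within either diet by limma. On SD, 4 members were higher in CB1KO at an unadjusted p under 0.05 (Has1, Timp1, Thbs1 and Has2) and none lower, beside 2.18% and 6.84% of all genes, and 0.00345% of all genes were called. On HFHS, 3 were higher (Col4a2, Timp1 and Col4a1) and none lower, beside 3.42% and 5.97%, and 0.249% of all genes were called. Groups did not overlap, with CB1KO higher, for 1 member on SD (Has1) beside 1.03% of all genes, and for 3 on HFHS (Col4a2, Col6a2 and Loxl1) beside 3.16%. No member was higher without overlap on both diets, beside 0.128% of all genes. In the interaction 0 members and 0 genes were called, with 1 member higher (Col4a2) and 1 lower (Has1) at an unadjusted p under 0.05, beside 2.10% and 1.53%. The members' interaction median lay 0.20 above that of all genes with all arrays. Without both arrays of unusual spread, its distance from that of all genes was -0.25.

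The diet comparison asks whether 15 weeks on HFHS shifted these genes within a genotype. No member was called in either genotype by limma, beside 0 genes in WT and 0.0276% of all genes in CB1KO. In WT, 34 of 40 members were above 0 on HFHS relative to SD, with a median of 0.23 against -0.06 for all genes, of which 41.0% were above 0. In CB1KO, 33 of 40 were above 0, with a median of 0.41 against -0.07. No member had an unadjusted p under 0.05 in WT, beside 6.06% of all genes. In CB1KO 8 were higher on HFHS at that level (Col6a1, Col6a2, Col6a3, Col4a1, Col4a2, Nid1, Nid2 and Loxl1), beside 5.37% of all genes, and 2 lower (Has1 and Has2), beside 4.22%. All 7 fibrillar and fibril-associated collagens and all 3 collagen VI chains were above 0 in both genotypes, with medians of 0.42 and 0.38 in WT and 0.54 and 0.78 in CB1KO. Relative to all genes the CB1KO medians were 0.61 and 0.85, and 0.24 and 0.55 without CB1KO HFHS replicate 1. The WT medians were 0.48 and 0.45 on that scale, with 0.32 for the fibrillar group without WT HFHS replicate 1 and 0.24 for collagen VI without WT SD replicate 3. Col6a3 differed by 0.79 ± 0.30 in CB1KO (adjusted p = 0.407). The 5 members with the smallest p in WT were Nid2, Loxl2 (0.37 ± 0.23), Col18a1, Col5a1 (0.46 ± 0.30) and Col12a1 (0.53 ± 0.37), with adjusted p of 0.907 to 0.952.

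Because both diets lay on separate slides, these diet values cannot be told apart from a slide difference. The comparisons of diet and of genotype share arrays and are not independent. Relative to all genes the members' median in CB1KO was 0.48, falling to 0.23 without CB1KO HFHS replicate 1 and 0.04 without both arrays of unusual spread. In WT it was 0.29 and ran from 0.16 to 0.37 when single arrays were left out. Adipocyte markers had a median of 1.71 on HFHS relative to SD in CB1KO, with 7 of 8 above 0. The log2 of their summed signal overlapped, at 7.19 to 8.56 in CB1KO HFHS against 7.31 to 7.79 in CB1KO SD. In the same comparison macrophage markers had a median of 0.56, with 12 of 12 above 0. Fibroblast and fibro-adipogenic progenitor markers had one of 0.44, with 11 of 12 above 0. The part of these markers in the matrix values was not tested. In whole muscle a change in the number of cells of a type and a change in RNA per cell cannot be told apart.

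**Figure D3:**
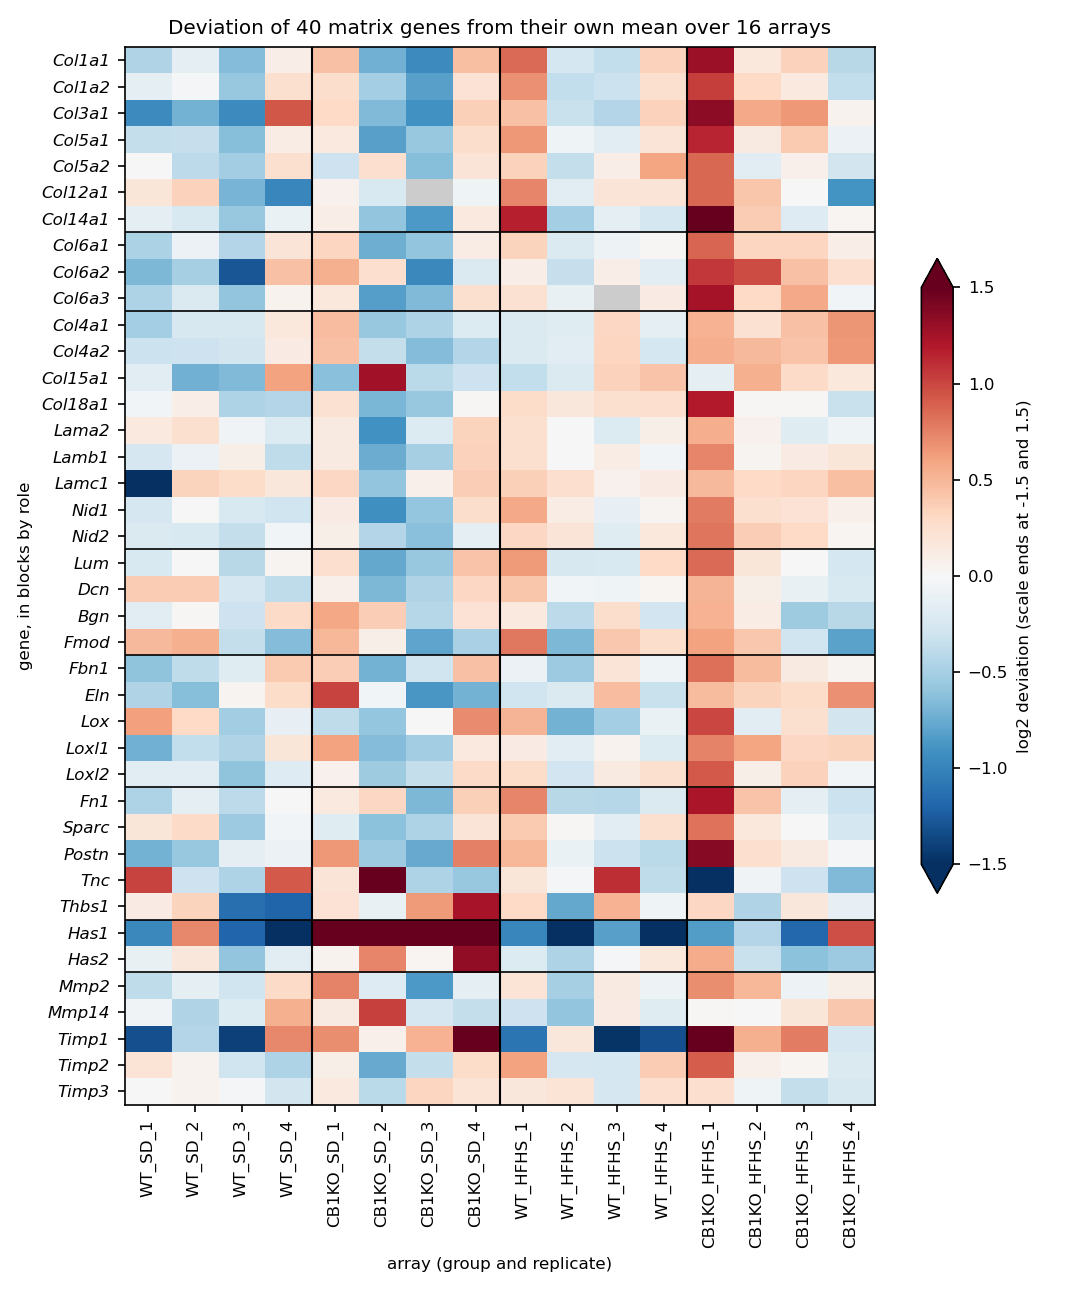
Deviation of each of the 40 genes (rows, in blocks by role) from its own mean over the 16 arrays (columns, by group and replicate), in log2 units, with red above and blue below the mean, colours ending at -1.5 and 1.5, and grey for the 2 outlier spots left out. CB1KO HFHS replicate 1 is red in nearly every row, and Has1 is red on all 4 CB1KO SD arrays.

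The matrix genes varied together from array to array within groups. After removal of group means, the 780 pairs of members had a median correlation of 0.45 over the 16 arrays, and 81.0% were positive, against a median of -0.11 for pairs of a member and any other gene tested. Without both arrays of unusual spread the medians were 0.38 and -0.04. The closest pair was Col1a1 with Col1a2 (r = 0.98, Spearman rho 0.95), followed by Col1a1 with Lum (r = 0.97, rho 0.97) and Col5a1 with Col6a3 (r = 0.96, rho 0.96). These are descriptions over arrays that share their scaling, and genes of 1 array are not independent. Dcn and Lum, neighbours on chromosome 10, reached r = 0.79, and the neighbours Col3a1 and Col5a2 on chromosome 1 reached 0.65. Col6a1 and Col6a2, also neighbours on chromosome 10, reached 0.62. Tnc, Col15a1 and Mmp14 ran against the others, with median correlations of -0.30, -0.27 and -0.20, and Has1 with neither direction, at 0.01. Within groups, Tnc, Col15a1 and Mmp14 correlated with the signal spread of the array at r = -0.87, -0.89 and -0.81. The other members did so at r from -0.23 (Col6a2) to 0.86 (Lama2). The SD within groups was 0.44 at the median of the members and 0.35 at that of all genes, and ran from 0.25 for Timp3 to 1.02 for Has1.

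The array that weighed most was CB1KO HFHS replicate 1, where the median member lay 0.81 above its own mean and 37 of 40 members lay above it. CB1KO SD replicates 2 and 3 and WT SD replicate 3 lay lowest, at -0.54, -0.53 and -0.45, and the other 12 arrays lay between -0.23 and 0.29. Of these extremes, CB1KO HFHS replicate 1 and CB1KO SD replicate 2 were also the arrays of largest and smallest signal spread, and the other 2 were not. The part of signal spread in the matrix values was not tested beyond the settings given.

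**Figure D4:**
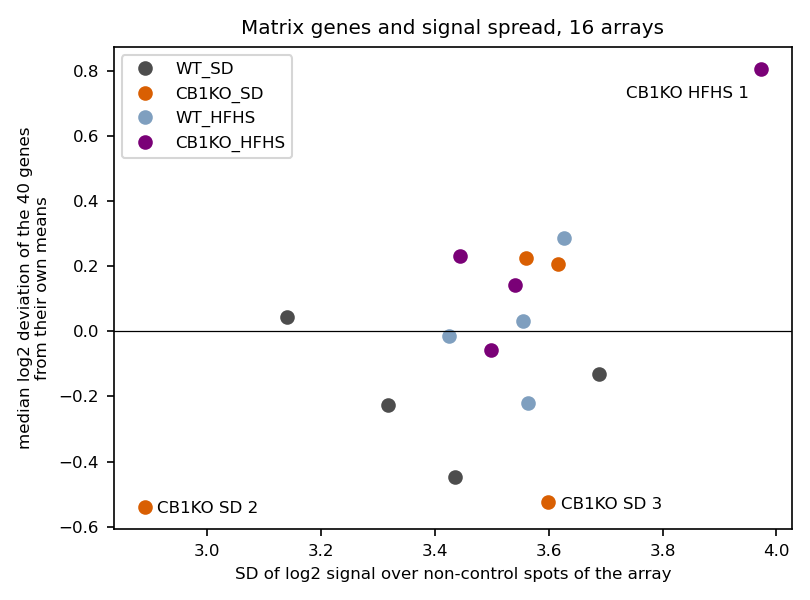
Median log2 deviation of the 40 genes from their own means (y axis) against the SD of log2 signal over the non-control spots (x axis) for the 16 arrays, coloured by group. CB1KO HFHS replicate 1 is at 3.97 and 0.81, CB1KO SD replicate 2 at 2.89 and -0.54, and CB1KO SD replicate 3 at 3.60 and -0.53.

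Genes that act with the members were followed in 8 further lists, which together gave 3 calls over both diets. In this comparison 0.763% of all genes were called, 0.311% as higher and 0.452% as lower in CB1KO. Plod2, which hydroxylates lysines of collagen telopeptides before crosslinking, was called higher in CB1KO (0.59 ± 0.10, limma adjusted p = 0.0235), 1 of 26 folding, processing and crosslinking enzymes. It averaged -2.63 ± 0.11 in WT and -1.85 ± 0.25 in CB1KO on SD and -2.37 ± 0.19 and -1.98 ± 0.18 on HFHS. The WT and CB1KO arrays did not overlap on SD and overlapped by 1 WT array on HFHS. The call was lost without any one of 7 arrays and with quantile normalization (0.62, adjusted p = 0.133), normexp with quantile normalization (0.40, adjusted p = 0.105) and the authors' z-scores (0.71, adjusted p = 0.0811). P4ha1, a prolyl hydroxylase subunit, followed with -0.51 ± 0.14 (adjusted p = 0.106).

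Of 14 genes for hyaluronan synthesis, binding and breakdown, 1 was called higher and 1 lower over both diets, beside 0.311% and 0.452% of all genes. Cd44, the main cell-surface hyaluronan receptor, averaged -0.68 ± 0.33 in WT and -0.12 ± 0.20 in CB1KO on SD and -0.73 ± 0.24 and -0.01 ± 0.23 on HFHS, a difference of 0.64 ± 0.13 (limma adjusted p = 0.0409). Its call was lost without any one of 11 arrays, and the mean of its probes gave 0.28 (adjusted p = 0.396). Stab2, an endocytic receptor that clears hyaluronan, averaged 3.48 ± 0.34 and 2.84 ± 0.43 on SD and 3.32 ± 0.28 and 1.96 ± 0.26 on HFHS. It fell by 1.00 ± 0.17 averaged (adjusted p = 0.0174) and by 1.36 ± 0.23 on HFHS (adjusted p = 0.0251), where the 4 CB1KO arrays lay below the 4 WT arrays. The averaged call was kept when any single array was left out and lost with the replicate block (adjusted p = 0.0642). The HFHS call was lost without any one of 7 arrays, with only the compared groups in the fit (adjusted p = 0.0551) and with the replicate block (adjusted p = 0.107).

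No other gene of the lists was called over both diets. Among 24 other collagen chains the smallest p belonged to Col9a3 (-2.01 ± 0.49, adjusted p = 0.0734), a chain of cartilage collagen IX, and Col4a4 (-0.29 ± 0.09, adjusted p = 0.179). Over 12 other settings the Col9a3 difference ran from -2.17 to -0.44, the latter with normexp and quantile normalization, and it passed the threshold in 5 of them (adjusted p from 0.00741 to 0.125). Among 24 other matrix proteases and inhibitors they were Plaur, the urokinase receptor gene (1.12 ± 0.26, adjusted p = 0.0686), and Adam12, a membrane protease gene (-0.37 ± 0.10, adjusted p = 0.0965). Among 23 genes of TGF-beta signalling to matrix they were Ccn2, a target of TGF-beta (1.00 ± 0.31, adjusted p = 0.150), and the receptor gene Tgfbr1 (-0.42 ± 0.14, adjusted p = 0.184). The fibronectin receptor gene Itga5 (0.97 ± 0.32, adjusted p = 0.185) and Itgb4 (-0.65 ± 0.24, adjusted p = 0.230) led 25 matrix receptors. Among 15 other basement membrane components none was called, and the laminin chain gene Lama1 had a difference of -0.48 ± 0.42 (adjusted p = 0.616). Matn2 and Igfbp7 led 28 other elastic fibre, proteoglycan and glycoprotein genes, with adjusted p of 0.345 and 0.361. List medians ran from -0.09 to 0.09, beside -0.13 for all genes and 0.19 for the 40 members.

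Markers of other cells differed in mean between genotypes on each diet, nearly all without a call. Of all genes, 32.1% were above 0 on SD and 31.4% on HFHS, with median differences of -0.12 and -0.14. On SD, 9 of 9 slow muscle fibre markers had a higher mean in CB1KO (median 2.57). The log2 of their summed signal was 8.15 to 9.56 in CB1KO against 4.32 to 7.79 in WT, the groups in which Has1 did not overlap. On HFHS 5 of 9 were above 0 (median 0.06), with wide, overlapping summed levels of 5.20 to 9.26 in CB1KO and 4.88 to 9.82 in WT. Adipocyte markers were lower in CB1KO on SD in 8 of 8 (median -1.01), with summed levels of 7.31 to 7.79 against 7.41 to 8.89. On HFHS, 8 of 8 smooth muscle and pericyte markers were lower in CB1KO (median -0.48), with summed levels of 5.85 to 6.06 against 6.17 to 6.81. Of these lists 1 gene was called, Lmod1, lower averaged over both diets (-0.80 ± 0.17, limma adjusted p = 0.0469), beside 0.452% of all genes. Its probe was well above background on 4 of 4 WT SD and 3 of 4 WT HFHS arrays but on only 1 of 4 arrays in each CB1KO group, so the size of this difference is poorly measured. Fibroblast and fibro-adipogenic progenitor markers, 12 of 12 well above background on all arrays, had medians of 0.09 on SD and 0.18 on HFHS, and tendon markers of -0.02 and -0.29. The part of these markers in the matrix values was not tested.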

How the data were processed

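Total RNA from 16 muscle samples was labelled with Cy3 and hybridised to Agilent 1-colour arrays. The deposited scanner files hold spot intensity extracted with Feature Extraction 11.5.1.1, per the file headers, background-subtracted by that software. A deposited table of the whole series holds a score per probe, which matched each array's log2 intensity centred and divided by its SD to within 0.005, so it was read as a z-score and served as an alternative. Groups followed the sample titles. The log2 processed signal was reduced by each array's 75th percentile over non-control spots, outlier spots (0.299% of values) were left out, and probes well above background on at least 4 arrays were kept. No spot was saturated. Probes were named by RefSeq accession (28026 of 55681 named), and each gene took its brightest probe. Of 11 members with more than 1 probe, 8 had probes of the same sign in the averaged comparison, and Timp2, Nid1 and Col14a1 did not. A limma model (version 3.58.1, R 4.3.3) estimated a mean for each of the 4 groups across the 28972 genes, and Benjamini-Hochberg adjustment ran over all of them. P-values measure the spread between these samples, and the 16 arrays limit the precision. The members, the lists and the alternatives were chosen with earlier results of these data known. Members given array by array were those called, the 3 with the smallest p in each comparison and the brightest of each role. In the other lists, called genes and the 2 with the smallest p over both diets were named, except 1 gene that is not reported here. The scripts' fit was tested on simulated data. Alternatives covered normalization, filters, outlier spots, probe choice, variance model, array weights, blocks, samples in the fit and single arrays left out. Coordinates of promoter windows are RefSeq's, on GRCm38.p6, and the scanner files' mm9 positions were not used.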

Additional observations from a re-analysis of the deposited data

Results flagged for a closer look

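In 10 of 160 groups of 4 arrays (6.25%), 1 array of a member gene stood apart from the other 3 by Dixon's test at the 95% level, where chance flags about 1 in 20. Has1 read 1.71 on CB1KO SD replicate 4, against -0.54 to -0.16 on the other 3 arrays of its group. Lamc1 read 0.64 on WT SD replicate 1, against 4.09 to 4.26. On WT SD replicate 4, Col3a1 read 5.71, against 3.82 to 4.06, and Col4a2 read 2.74, against 2.29 to 2.35. Loxl2 read 0.55 on WT SD replicate 3, against 0.96 to 1.00. Col15a1 read -1.61 on CB1KO SD replicate 2, the array of smallest signal spread, against -3.51 to -3.18. The other 4 were all on WT HFHS replicate 3, where Col4a1 read 3.46 against 2.93 to 3.0, Col4a2 2.94 against 2.36 to 2.45, Eln -1.33 against -2.13 to -2.02 and Timp3 4.56 against 4.98 to 5.06.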

How the results depend on the processing

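The count of matrix genes past the threshold over both diets, 1 with the settings used, was 0 with only probes well above background on all arrays (which removes Has1), with slide as a block and with the replicate block, and 2 (Has1 and Timp1) with array weights and with signal spread as a covariate. It was 0 to 1 over the 16 sets without 1 array, and 0 without WT SD replicate 1 or 3, CB1KO SD replicate 4, WT HFHS replicate 2 or 4, or CB1KO HFHS replicate 2 or 4. On SD it was 1 (Has1) with normexp and quantile normalization (2.74, adjusted p = 0.0358), without both arrays of unusual spread (3.93, adjusted p = 0.0445) and with the spread covariate (3.78, adjusted p = 0.0260), and on HFHS 2 (Col4a1 and Col4a2) with array weights. Array weights called 1977 of all genes over both diets and 2124 on HFHS, and the spread covariate 1734 over both diets. The 3 SD settings called 23, 227 and 148 of all genes, in that order. The cause of these changes was not tested beyond that filter. Of the other 157 recomputed counts all stayed within 1.5 times their value. Of the recomputed fold changes, 1273 kept direction and side of the threshold, 33 gained and 45 lost a call, and none reversed. With all 16 arrays or without both arrays of unusual spread, 59 to 1977 of all genes were called over both diets, against 221, 36 to 2124 on HFHS, against 72, 0 to 227 on SD, against 1, 0 to 137 between diets in CB1KO, 0 to 91 in WT and 0 to 10 in the interaction. Without 1 array these ranges were 59 to 610, 15 to 134, 0 to 12, 0 to 28, 0 to 1 and 0 to 11. Over the alternatives other than single arrays left out, the members' median relative to all genes ran from 0.22 to 0.32 over both diets. In the interaction it ran from -0.25 to 0.24. With single arrays left out, the ranges of that median were 0.15 to 0.38 and -0.02 to 0.36.

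Replicate numbers did not pair the samples: same-numbered arrays of different groups deviated together at r over 0.1 in 8 of 24 pairs, from -0.75 to 0.61. They also matched the column of each array on its slide, so the replicate block is a block of column position too. With the replicate block, Has1 had the same difference, 2.57, with adjusted p = 0.0849, Plod2, Cd44 and Stab2 also lost their calls, and 59 of all genes were called. Has1 was well above background on 13 of 16 arrays, which limits its low values, and the other 39 members were well above it on all.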
